A study of Mus musculus with 7 samples.

Results

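On the first day of retinoic acid treatment without leukemia inhibitory factor (LIF), 185 genes of the mouse embryonic stem cell line CCE stood 4-fold or more above their day 0 value and 121 stood 4-fold or more below it. Among the genes far above day 0 were Hox genes of clusters A and B, the zinc finger gene Zfp703, retinoid-handling genes such as Cyp26a1 and Stra6, and the meiosis gene Stra8. Among those far below it were Tdh, Foxd3, Tdgf1, Inhbb and some naive pluripotency genes. The account covers every gene symbol whose value reached 7 on day 0 or on day 1, which were 10349 of the 12071 symbols of the deposited table. For a symbol with several transcripts, the transcript with the highest mean over the 7 libraries of the series stood for it.

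CCE cells were grown on gelatin without feeder cells. On day 0 they had LIF and the DMSO vehicle, and on day 1 they had no LIF and 5 µM retinoic acid. Total RNA depleted of ribosomal RNA was sequenced in 1 library per day, so each comparison below is of 1 library with 1 library and has no replicate check. The loss of LIF, the addition of retinoic acid and a day in culture came together, and their parts cannot be told apart. The series follows the same cells to day 6, and its title names Zfp217 and m6A methylation of RNA.

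Retinoic acid, made from vitamin A, enters the nucleus and binds receptors of the Rar and Rxr families, which sit on DNA at paired half-sites and switch from repression to activation. Its early targets include the Cyp26 enzymes that destroy it and the Hox genes, which give cells their position along the body axis. LIF acts through its receptor and the factor STAT3 to hold mouse embryonic stem cells in the naive state, in which factors such as Nanog, Esrrb, Klf4 and Tfcp2l1 are active together.

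A value is the deposited log2 read value of a gene, a whole number of reads times 1 factor per library, put on the log2 scale and not divided by transcript length. A difference is day 1 minus day 0 in log2 units, so that 1 is 2-fold and 2 is 4-fold. Recovered reads, summed over all transcripts, came to 10280938 on day 0 and 11462785 on day 1, and 1 read was worth 0.94 and 0.78. Reads shared by several transcripts of a gene may count more than once in these sums, which serve below as library totals. Genes listed at 1 read, the least a library shows, may have had none. Ranges after a difference are exact binomial (Clopper-Pearson) 95% intervals from the reads of the 2 libraries, and they cover counting error only. In bulk RNA, fewer cells that express a gene and less RNA per cell cannot be told apart.

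The 5 genes chosen as markers of this day all stood far from day 0. Cyp26a1, the enzyme that oxidises retinoic acid, went from 4.75 to 12.74 (14 and 3965 reads), Stra8 from 6.07 to 12.70 and Hoxa5 from 1.94 to 11.11. Tdh, threonine dehydrogenase, went from 12.49 to 6.91, and Socs3, the feedback inhibitor of STAT3 signalling, from 10.94 to 7.68. Cells of both days carried the transcripts that define the stem cell line: Pou5f1, which encodes Oct4, was at 14.40 on day 0 and 13.52 on day 1, and Sox2 at 12.25 and 11.02.

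Upstream sequences were examined for the binding letters of the factors named above, because many of these genes are known to respond to them directly. The RefSeq promoter table (build GRCm38.p6) gave the 250 bases before the start of 7310 of the 10349 genes, among them 119 of the 185 higher and 80 of the 121 lower genes, and 32851 promoters in all, counting each start of a gene that has several. The retinoic acid response element searched was a direct repeat of half-sites (AGGTCA or AGTTCA or GGGTCA or GGTTCA) with 5 bases between them, read on both strands. It lay in 29 of all promoters (0.0883%) and in 3 of those matched here, Cyp26a1, Rarb and Blvrb. Cyp26a1 and Rarb, the retinoic acid receptor beta gene, were both at least 4-fold higher on day 1, while Blvrb, biliverdin reductase B, went from 8.55 to 8.53. The 100 bases before the start of Cyp26a1 (chr19:37697708-37697807, plus strand) and of Rarb (chr14:16575477-16575576, minus strand) are shown 5′ to 3′ with the repeat in capitals.
Cyp26a1: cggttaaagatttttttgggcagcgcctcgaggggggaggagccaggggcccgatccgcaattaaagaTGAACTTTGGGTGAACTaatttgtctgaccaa
Rarb: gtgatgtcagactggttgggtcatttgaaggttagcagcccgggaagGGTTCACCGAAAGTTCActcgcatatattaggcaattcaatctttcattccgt

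For the lower genes the letters searched were those of the pluripotency factors and of STAT3, again on both strands. The composite Sox-Oct site CATTGTNATGCAAA lay in 2 promoters of the table (0.00609%). Both were those of Nanog, which has 2 starts in the table, and they hold the same genomic site. The octamer ATGCAAAT, which overlaps the composite site in 7 letters, lay in 1.6% of all promoters, in 1.52% of the 7310 matched, in 3 of the 119 higher genes (Prrt3, Sh3bgrl and Stox2) and in 5 of the 80 lower ones (Gcnt2, Liph, Spp1, Zfp296 and Zfp42). The STAT palindrome TTCCNGGAA lay in 0.913% of all promoters, in 1.14% of the 7310 matched, in 1 higher gene (Ap3b2) and in 2 lower ones (Cpsf4l and Icam1). A repeat with 2 bases between the half-sites lay in 57 promoters (0.174%) and in 6 of the 7310 matched genes (0.0821%). It lay in none of the matched genes at least 4-fold apart, which at so low a share says little. A match describes letters, not binding, and the window holds no information on more distant sites. Windows of 100 bases around the match are shown as examples, for Nanog (chr6:122707371-122707470, plus strand) with the composite site in capitals and for Zfp296 (chr7:19577130-19577229, plus strand) with the octamer in capitals. The Nanog window runs from −118 to −19 of one start and from −194 to −95 of the other, and that of Zfp296 from −157 to −58.
Nanog: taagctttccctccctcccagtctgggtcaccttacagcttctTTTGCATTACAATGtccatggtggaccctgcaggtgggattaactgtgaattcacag
Zfp296: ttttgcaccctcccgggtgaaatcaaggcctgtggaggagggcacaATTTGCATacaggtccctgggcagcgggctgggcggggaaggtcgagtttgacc

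Of the 10349 genes, 785 were at least 2-fold higher on day 1 (7.59%) and 424 at least 2-fold lower (4.1%). At 4-fold the shares were 1.79% higher and 1.17% lower, and these are the backgrounds against which the gene lists below are to be read. The median difference was 0.09, a slight upward lean whose source was not tested. The direction of the balance depends on the scaling: as deposited, 60.5% of the genes at least 4-fold apart were higher, and with quantile normalization the counts were 146 higher and 155 lower, or 48.5% higher. At 2-fold the share went from 64.9% to 52.6%. Counting error left 119 of the 185 higher and 89 of the 121 lower genes with an interval wholly past 4-fold.

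**Figure D1:**
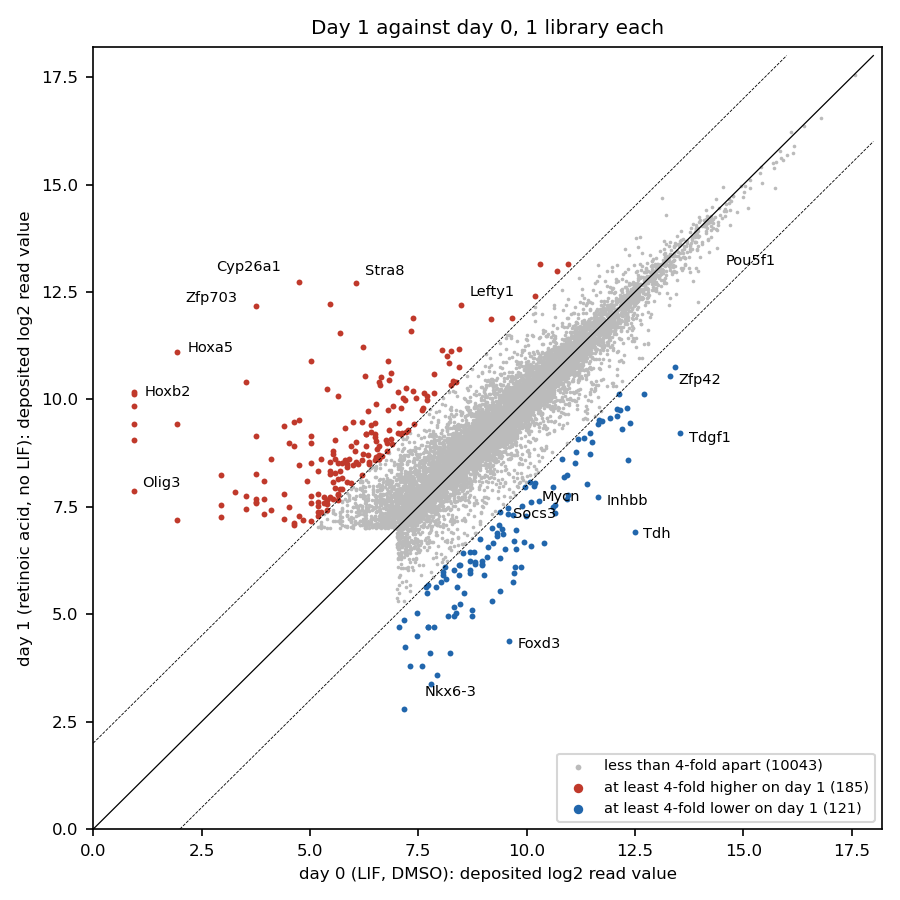
Deposited log2 read values of the 10349 genes on day 0 (horizontal) and day 1 (vertical), 1 library each, with the solid line at equal values and dashed lines 4-fold apart. The 185 genes higher by 4-fold (red) begin mostly below 7 on day 0, the 121 lower genes (blue) lie along the whole range to above 12, and the bulk widens toward low values.

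The higher genes came up from low levels. Their median value went from 5.85 on day 0 to 8.92 on day 1, or from 30 to 282 reads, and 146 of the 185 were under 7 on day 0. The lower genes went from a median of 9.39 to 6.57, or from 350 to 55 reads, and 73 of the 121 were under 7 on day 1. Over all 10349 genes, 692 were under 7 on day 0 and 321 on day 1. A gene under 7 on 1 day was described only through its other day. These low ends thus follow in part from the level limit and the 4-fold limit. Genes whose mean over the 7 days did not pass 8.4 made up 95 of the higher and 100 of the lower genes, against 3141 of all 10349. Transcription factors, taken from the ontology terms in the deposited table, were 32 of the higher genes (17.3%) and 16 of the lower (13.2%), against 3.16% of all genes. Genes annotated as extracellular were 9.73% of the higher and 15.7% of the lower genes, against 3.64% of all.

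Level and length moved with the counts. Of 1703 genes whose higher day lay between 7 and 8, 2.52% were at least 4-fold higher and 1.06% lower, with a median counting interval 0.92 wide. Of 844 genes at 12 or more, the shares were 1.07% and 1.54%, with a median interval 0.14 wide. Among these very abundant transcripts, then, more were lower than higher by 4-fold, 13 against 9. The difference also went with transcript length across genes (Spearman rho 0.22), with medians of −0.03, 0.10 and 0.21 in the shortest, middle and longest of 3 equal groups. The part of length in any single gene was not tested beyond the correction given among the alternatives.

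Genes that handle retinoids divided into a group far higher and a group near day 0. Over the 11 such genes described, the median difference was 2.78, a value that rested on the level limit. Of the 11, 6 were at least 4-fold higher and none was 2-fold lower. Both Cyp26 enzymes were among the higher ones. Cyp26a1 (NM_007811, chromosome 19, 37772297 to 37776026, mm9) was 254-fold higher, a difference of 7.99 (interval 7.24 to 8.86), and Cyp26b1 went from 5.47 to 12.22, 108-fold higher. Per length, Cyp26a1 reached 193 RPKM (reads per kilobase of transcript and per 1000000 reads) on day 1 from 0.76, and Cyp26b1 reached 58.0 from 0.54. Stra6, the membrane receptor that takes up retinol, went from 6.23 to 11.21. Dhrs3, which reduces retinaldehyde to retinol, went from 5.64 to 10.09, and Crabp2, which carries retinoic acid to the nucleus, from 5.80 to 8.59.

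The remaining retinoid genes showed little difference. Crabp1, the other cellular retinoic acid-binding protein, was at 7.15 and 7.40, and Fabp5, a fatty acid-binding protein that can carry retinoic acid, at 8.53 and 8.75. The retinaldehyde reductase genes Rdh11 and Dhrs4 and the retinol saturase gene Retsat lay within 0.5 of day 0. The synthesis genes stayed under 7 on both days. Aldh1a2, the main retinaldehyde dehydrogenase of the embryo, was at 5.40 and 5.95, Aldh1a1 at 4.64 and 3.59, and Rdh10, the retinol dehydrogenase before them, at 6.11 and 6.71. Summed over the 18 retinoid genes of the table, RPM (reads per 1000000) went from 112 to 957. With these low genes included, the median difference of the list was lower by 2.21 and no longer past 4-fold.

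Of 16 receptors and coregulators, 2 were at least 4-fold higher and 13 lay within 0.5 of day 0. Rarb went from 6.53 to 9.03 (48 and 304 reads), a difference of 2.50 (interval 2.06 to 2.98). Its neighbour on the other strand, the topoisomerase gene Top2b, went from 9.14 to 10.75. The other receptors hardly differed: Rara was at 10.32 and 10.69, Rarg at 11.95 and 11.68, Rxra at 9.18 and 8.83, and Rxrb at 9.91 and 10.18. Nrip1, a corepressor of nuclear receptors that is itself a known retinoic acid target, went from 6.83 to 10.45 (interval 3.24 to 4.03). The corepressor Ncor1 and the coactivators Ep300, Crebbp and Ncoa1 lay within 0.5 of day 0.

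Among 33 genes listed as retinoic acid responsive, 24 were higher by at least 4-fold, 26 by at least 2-fold, and 2 were at least 2-fold lower. This list, like the others, was drawn up with earlier results of these libraries known and is no independent support for its direction. Zfp703, a zinc finger repressor, had the largest difference in it, from 3.75 to 12.17 (7 and 2669 reads). Tshz1, a teashirt zinc finger gene, went from 4.64 to 8.92, Pmp22, a membrane protein of myelin, from 4.40 to 9.38, and Efnb1, a membrane-bound ephrin ligand, from 5.99 to 9.47. Tgm2, tissue transglutaminase, began higher and went from 8.45 to 10.76. Nr2f2, the orphan receptor COUP-TFII, was at 1.94 and 6.69 and so stayed just under 7, while its relative Nr2f1 was at 2.53 and 2.78. The 2 lower genes were Egr1, an immediate early zinc finger factor, from 8.57 to 6.67, and Plaur, the urokinase receptor, from 8.06 to 6.28.

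**Figure D2:**
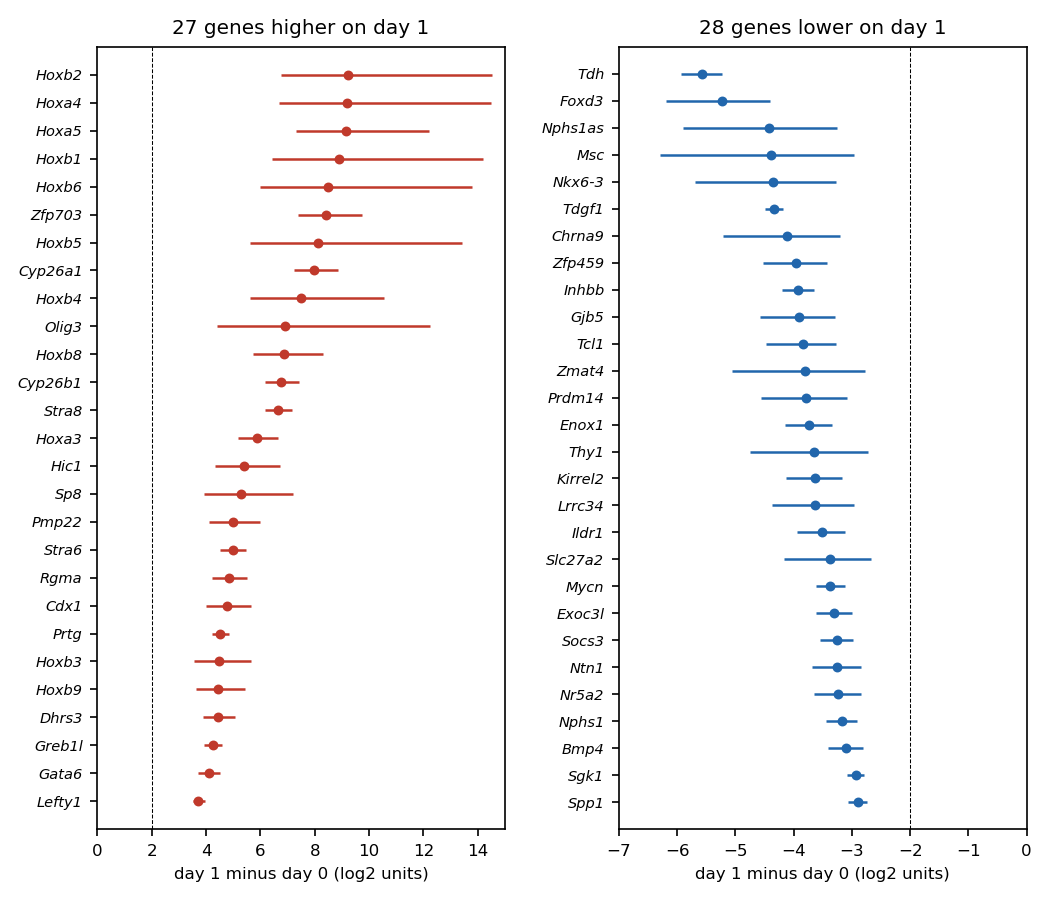
Differences (day 1 minus day 0, log2 units) of 27 genes higher and 28 lower that the naming rule selects, as points with 95% counting intervals (lines); dashed lines mark 4-fold. Intervals are widest where day 0 had 1 or 2 reads, as for Hoxb2 and Hoxa5, and narrow for Tdh, Tdgf1 and Lefty1.

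Hox genes of clusters A and B were higher as whole blocks. All 6 cluster A genes and all 8 cluster B genes that reached 7 were at least 4-fold higher, with median differences of 5.86 and 7.80. Each of them was under 7 on day 0 and was described only through day 1, so their upward direction followed from the level limit. Of the 26 Hox genes in the table, 22 were at least 4-fold higher and 20 had an interval above 0, while 11 were at 1 read on day 0. In cluster A, Hoxa3 went from 5.03 to 10.90 (17 and 1110 reads) and Hoxa5 from 1.94 to 11.11 (2 and 1283 reads). Hoxa4 went from 1 read to 644, log2 interval 6.69 to 14.48. Hoxa3 overlaps Hoxa4 and Hoxa5 in the deposited annotation, so reads within the shared stretch cannot be assigned from the table.

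Compared per length on day 1, Hoxa3, Hoxa4 and Hoxa5 stood above the posterior genes of cluster A and also above Hoxa2. Hoxa5 was at 59.6 RPKM, Hoxa3 at 38.0 and Hoxa4 at 36.7. Hoxa7 was at 3.80 RPKM, Hoxa2 at 3.52, Hoxa10 at 3.03 and Hoxa9 at 1.15. The values of Hoxa7, Hoxa10 and Hoxa9 went from 1.94 to 7.19, from 2.94 to 7.26 and from 0.94 to 5.69, with 85, 89 and 30 reads on day 1.

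In cluster B, as in cluster A, the level did not follow position in a simple order. Hoxb1 went from 1 read to 534, Hoxb2 from 1 to 672, Hoxb5 from 1 to 311 and Hoxb6 from 1 to 398. Hoxb8, toward the posterior end, went from 3.53 to 10.39 and Hoxb9 from 4.53 to 8.98. Per length on day 1, Hoxb2 was at 35.9 RPKM, Hoxb6 at 26.2, Hoxb8 at 25.7 and Hoxb1 at 22.4. Below these were Hoxb4 at 16.7, Hoxb5 at 14.3 and Hoxb9 at 9.46. Hoxb7, which lies between Hoxb6 and Hoxb8, was at 3.50 RPKM with a value of 6.46, and Hoxb13, far from the rest, had 2 and 19 reads.

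Clusters C and D gave no gene at 7 or more among the 8 in the table. Hoxc4 was at 2.94 and 6.78 (4 and 64 reads) and Hoxc5 at 2.53 and 6.85 (3 and 67 reads), with differences of 3.84 (interval 2.42 to 5.76) and 4.32 (interval 2.71 to 6.64). Hoxc6, Hoxc8, Hoxc9 and Hoxc10 ended between 2.37 and 3.59. Hoxd4, the one cluster D gene present, had 8 reads on day 0 and 9 on day 1, a difference of 0.01 (interval −1.53 to 1.59). Summed RPM were 5.35 and 441 in cluster A, 3.50 and 321 in cluster B and 2.72 and 15.4 in clusters C and D together.

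**Figure D3:**
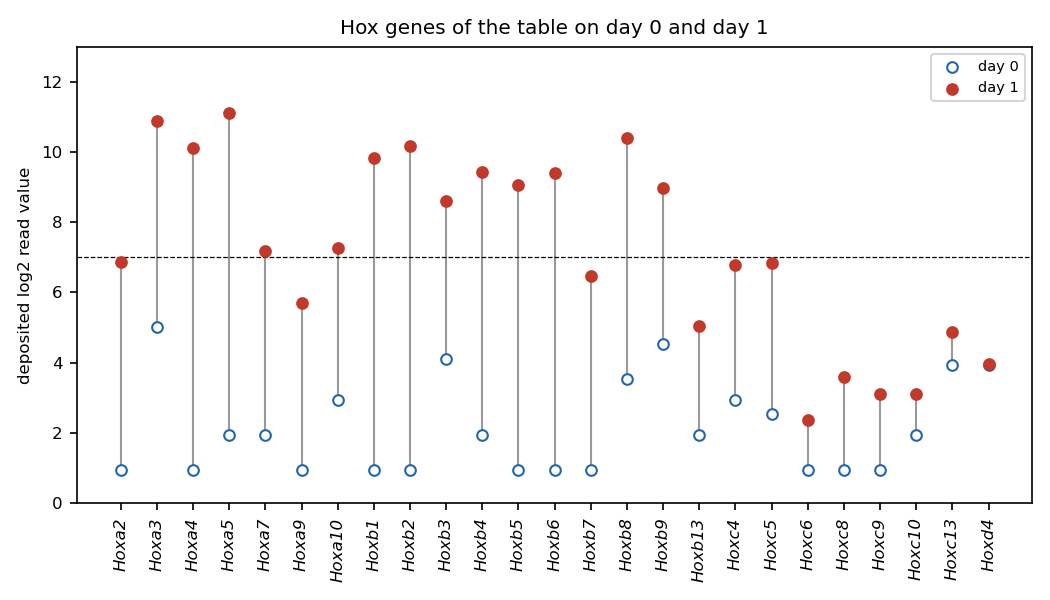
Deposited log2 read values of 25 Hox genes of the table on day 0 (open circles) and day 1 (filled circles), ordered by cluster and paralog number; the dashed line marks 7. Genes of clusters A and B end mostly between 7 and 12, and those of clusters C and D stay below 7.

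Genes of the TALE class, whose homeodomain proteins bind DNA with Hox proteins, and ParaHox genes were also mostly higher. Of 12 described, 5 were higher by at least 4-fold, 9 by at least 2-fold, and 1 was at least 2-fold lower. Meis1 went from 5.64 to 8.52 and Meis2 from 6.33 to 9.74. Pknox2 went from 6.30 to 8.92, while its paralog Pknox1 was at 9.45 and 9.30. Pbx2 and Pbx3 had differences of 1.26 and 1.39. Tgif1, a TALE repressor that limits Nodal and retinoic acid responses, was the lower one, from 10.84 to 9.80. Cdx1, the ParaHox activator of Hox genes, went from 4.75 to 9.51 (interval 3.996 to 5.64), and the receptor gene Pdgfrb beside it from 6.87 to 9.08.

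Other transcription factors among the higher genes belonged to several lineages. Olig3, a neural tube basic helix-loop-helix factor, went from 1 read to 135 (interval 4.42 to 12.23). Sp8, a zinc finger factor of limb and forebrain, went from 2.94 to 8.24, and Hic1, a zinc finger repressor, from 3.75 to 9.15. Foxq1 went from 3.75 to 8.25 and Dlx3, a homeodomain gene of ectoderm and placenta, from 3.53 to 7.44. Sall2 went from 6.61 to 10.33, while Sall4, a pluripotency factor of the same family, was at 12.18 and 11.40. Wt1, the Wilms tumour factor, went from 5.70 to 8.34 and Zfpm1, a cofactor of Gata factors, from 6.78 to 8.80, both chosen once their values were known.

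Other higher genes, named singly and not as a group, included genes of signalling and of the cell surface. Rgma, a repulsive guidance molecule and BMP co-receptor, went from 5.40 to 10.23, and Prtg, a membrane protein of the immunoglobulin superfamily, from 7.39 to 11.90. Gfra1, a receptor of glial cell line-derived growth factor, went from 5.80 to 9.33, and Gas1, a Hedgehog co-receptor, from 3.94 to 8.10. Fut4, a fucosyltransferase of surface glycans, went from 3.26 to 7.85. Greb1l went from 7.33 to 11.59. Also chosen once their values were known were Mdk, Dusp9 and Cotl1. Mdk, midkine, a heparin-binding growth factor, went from 10.32 to 13.15. Dusp9, a phosphatase that inactivates ERK, went from 10.70 to 12.99, and Cotl1, an actin-binding protein, from 10.95 to 13.16. Among families, 4 of 12 Eph receptors and ephrins and 6 of 18 semaphorins and plexins were at least 2-fold higher and none was 2-fold lower in either.

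Meiosis genes were higher in part. Of 17 germ cell and meiosis genes, 2 were higher by at least 4-fold, 5 by at least 2-fold, and 1 was at least 2-fold lower, with a median difference of 0.56. Stra8 (NM_009292, chromosome 6, 34870959 to 34889342, mm9), the gatekeeper of meiotic entry, had 35 reads on day 0 and 3876 on day 1 and was 99.2-fold higher, reaching 231 RPKM. Rec8, the meiotic cohesin subunit, went from 6.40 to 9.23 (interval 2.37 to 3.32). Mael, a piRNA pathway gene, went from 5.26 to 7.09, Kit, the stem cell factor receptor, from 10.28 to 11.43, and Dazl, a germ cell RNA-binding protein, from 6.87 to 7.98. Most structural genes of the meiotic chromosome axis lay near day 0. Sycp1 was at 7.40 and 7.91, Smc1b at 7.17 and 7.29, Stag3 at 10.10 and 10.03, and Sycp3, under 7 on both days, at 6.15 and 6.28. Prdm14, needed for both germ cells and naive pluripotency, was the lower one, from 8.74 to 4.95.

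Endoderm genes leaned upward. Of 21 extraembryonic endoderm genes, 5 were higher by at least 4-fold, 12 by at least 2-fold, and 1 was at least 2-fold lower, with a median of 1.02. Gata6, the factor that starts primitive endoderm, went from 6.80 to 10.90 (interval 3.71 to 4.50), and Gata4 from 7.09 to 8.61. Foxa2, a forkhead factor of endoderm, went from 3.75 to 7.68, Sox7 from 6.33 to 8.71 and the receptor Pdgfra from 7.03 to 9.21. Sox17 was at 4.11 and 6.81. Genes of later visceral endoderm differed among themselves. The apolipoprotein Apoe, the lower one, went from 11.64 to 10.33. Hnf4a was at 5.03 and 4.59 (17 and 14 reads), and Ttr, transthyretin, at 4.11 and 2.37, both near the floor. The endocytic genes Dab2 and Lrp2 went from 7.98 to 8.98 and from 11.70 to 12.50, and Cubn was at 9.48 and 9.87. The summed level of the 33 endoderm genes in the table was 1889 RPM on day 0 and 2284 on day 1. Matrix genes differed. The laminins Lamc1 and Lama1 were at 13.43 and 13.59 and at 12.19 and 11.83. The collagens Col4a1 and Col4a2 went from 11.33 to 12.35 and from 10.45 to 11.48.

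Neural progenitor genes leaned upward to a smaller degree and neuron genes did not. Of 11 progenitor genes, 3 were higher by at least 4-fold, 4 by at least 2-fold, and none was 2-fold lower. Sox1, an early neural plate factor, went from 6.56 to 8.86, Sox4 from 8.22 to 10.86, Sox3 from 7.74 to 9.66 and the RNA-binding gene Msi1 from 5.90 to 8.61. Pax6 was at 7.71 and 8.58, and Nes, nestin, at 7.39 and 7.41. Of 9 neuron genes none was 2-fold higher, and Stmn2, a microtubule regulator, went from 11.74 to 9.51. Their summed level, over 17 in the table, was 403 and 233 RPM, and Tubb3, the neuronal tubulin, was at 10.61 and 9.80.

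Mesoderm genes were mostly too low to describe: 3 of the 15 in the table reached 7. Of these 3, 2 were higher, 1 of them by at least 4-fold, and 1 was lower, with a median of 0.59. The lower one was Kdr, the receptor of blood vessel precursors, at 7.75 and 6.89. Snai2 went from 1 read to 15 and Foxc2 from 1 read to 17, both still under 7. Of 6 neural crest genes, 1 was 2-fold higher and 3 were 2-fold lower, with a median of −1.04. The lower ones were Foxd3, Mitf and Ngfr, and Foxd3 is also a pluripotency factor. The sign of that median rested on the level limit, because over all 12 crest genes in the table, low ones included, it was 0.49. Among 11 fibroblast and feeder genes, 1 was 2-fold higher (Pdgfrb) and 1 2-fold lower (Thy1, from 7.76 to 4.11). Their summed level was 1136 and 1309 RPM, with none of the 18 in the table at 1 read on either day, and collagen Col1a1 was at 8.09 and 7.97.

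**Figure D4:**
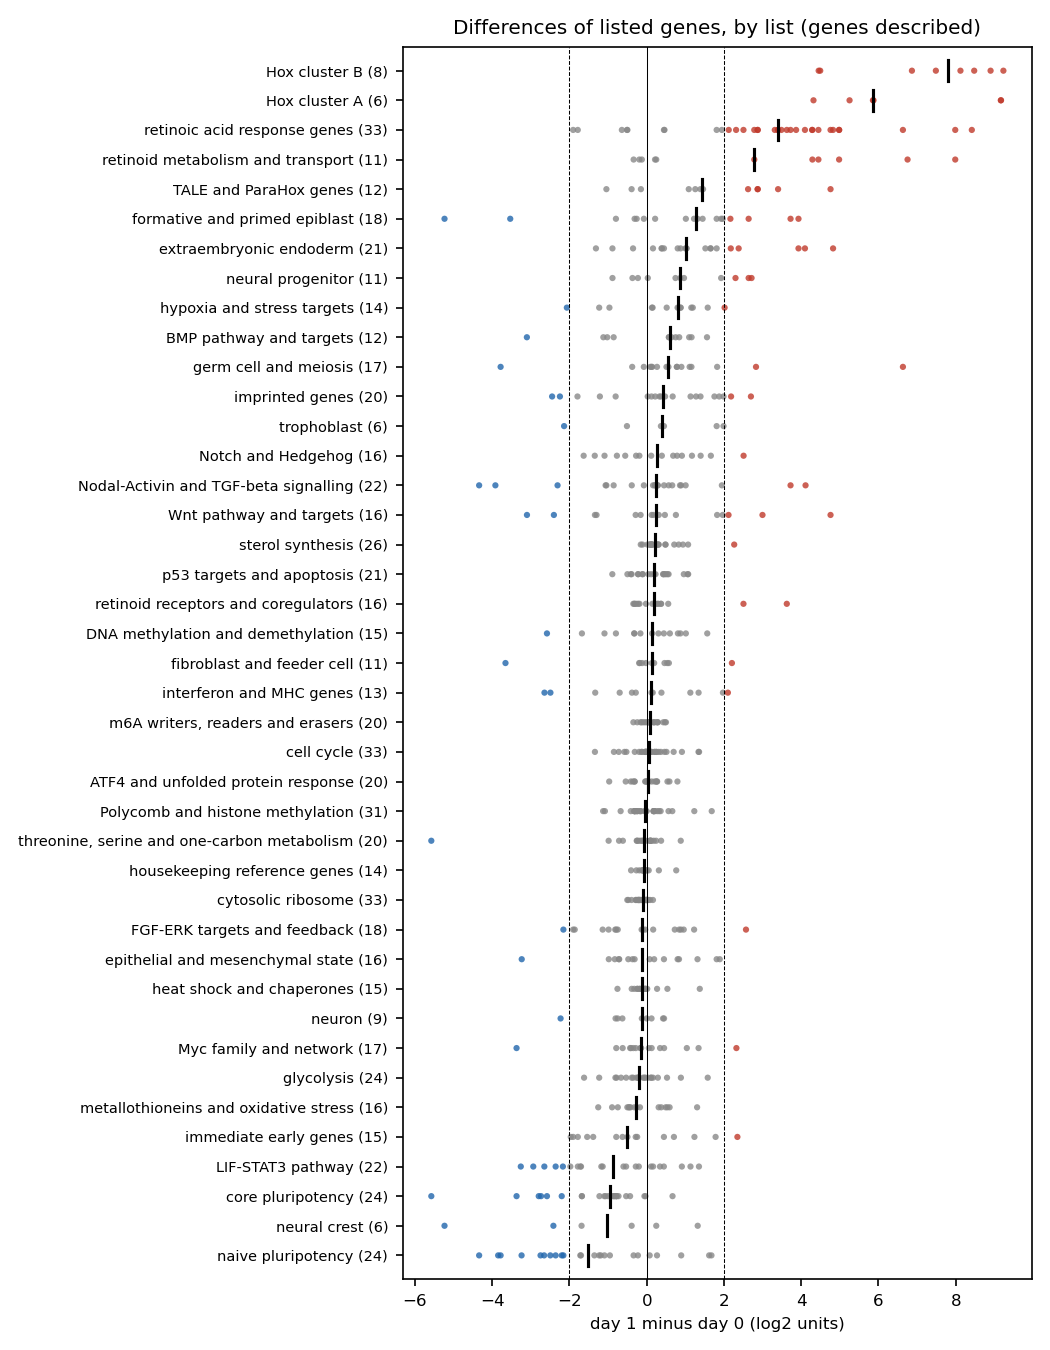
Differences (log2 units) of the described genes of 41 lists, 1 point per gene, with the number of genes in parentheses; black ticks mark medians, dashed lines 4-fold, red and blue points genes past it. Hox and retinoid lists lie at the top, pluripotency, neural crest and LIF lists at the bottom, and ribosomal, m6A and housekeeping genes cluster at 0; the lists with fewer than 5 described genes are not drawn.

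Core pluripotency genes were mostly lower, to unequal degrees. Of 24 described, 6 were lower by at least 4-fold, 11 by at least 2-fold, and none was 2-fold higher, and the median was −0.94. Their summed level went from 9997 to 5097 RPM. The central factors stayed abundant. Pou5f1 (811 RPKM on day 0, 441 on day 1) had a difference of −0.88 (interval −0.92 to −0.84), Sox2 one of −1.22 and Sall4 one of −0.78. Nanog, the homeodomain factor whose upstream sequence is shown above, went from 11.46 to 8.73 (1468 and 246 reads). The listed gene Nanogpd, which overlaps it on the same strand and is a near-identical copy, went from 10.87 to 8.20, so reads of the pair are uncertain. Zfp296 went from 9.75 to 6.95, Mycn from 11.39 to 8.02, Fbxo15 from 10.81 to 8.61, and Dnmt3l from 12.71 to 10.12. The lowest gene of this list was the enzyme gene Tdh, which is counted again with threonine metabolism below. Of the 24, 3 lay within 0.5 of day 0, among them Dppa2 (11.32 and 11.27) and Trim71 (11.53 and 11.49). Lin28b was the one higher gene, at 8.94 and 9.61, a difference of 0.67 (interval 0.44 to 0.90).

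Naive genes stood lower still. Of 24, 10 were lower by at least 4-fold, 16 by at least 2-fold, and 2 were at least 2-fold higher, with a median of −1.53. Tdgf1, the Nodal co-receptor Cripto, went from 13.54 to 9.21 (6219 and 343 reads), a difference of −4.34 (interval −4.50 to −4.18). Tcl1, a coactivator of Akt, went from 9.39 to 5.54, Nr5a2, a nuclear receptor that can bind the Pou5f1 promoter, from 9.93 to 6.69, and Nr0b1 from 11.50 to 9.003. Esrrb went from 13.42 to 10.76, Zfp42 from 13.30 to 10.55 and Klf4 from 11.93 to 9.57. Klf2 and Klf5 had smaller differences of −1.35 and −1.23, and Tcfcp2l1, the table's name for Tfcp2l1, one of −1.70. Over 13 Krueppel-like factors, 5 were at least 2-fold lower and none 2-fold higher.

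Some naive genes did not follow. Tbx3 went from 11.42 to 12.31, Alpl, the alkaline phosphatase used as a stem cell stain, from 11.20 to 12.81, and Calcoco2, an autophagy receptor, from 8.87 to 10.55. E-cadherin, Cdh1, was at 12.77 and 12.85. Dppa3, under 7 on both days, went from 5.26 to 2.37 (20 and 3 reads).

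Formative and primed epiblast genes differed in both directions. Of 18, 4 were higher by at least 4-fold, 11 by at least 2-fold, and 2 were at least 4-fold lower. Lefty1, a secreted Nodal inhibitor, went from 8.48 to 12.21 (interval 3.51 to 3.95), and its paralog Lefty2 was at 10.58 and 10.51. Zic2 and Zic5, which lie side by side, went from 7.59 to 9.75 and from 7.09 to 8.54. Pou3f1 went from 8.15 to 9.38, Cdh2, N-cadherin, from 6.80 to 8.12, and Dnmt3a, a DNA methyltransferase, from 11.97 to 12.99. The other de novo enzyme Dnmt3b was at 11.54 and 10.74. The lower pair was Foxd3, from 9.60 to 4.37 (405 and 12 reads), and Otx2, the forebrain and epiblast factor, from 7.32 to 3.78 (83 and 8 reads).

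LIF pathway genes were mostly lower, with some higher. Of 22, 5 were lower by at least 4-fold, 11 by at least 2-fold, and 2 were at least 2-fold higher, with a median of −0.87, and their summed level went from 2195 to 1023 RPM. The receptor gene Lifr went from 11.71 to 9.74 and so lay just short of 4-fold, at −1.98, while its partner Il6st was at 10.99 and 10.39. Stat3 went from 11.40 to 9.69. Among targets, Socs3 had a difference of −3.26 (interval −3.55 to −2.99), Sgk1, a serum-induced kinase, one of −2.94, Bcl3, a nuclear cofactor of NF-kappaB, one of −2.65, and Socs2 one of −2.17. Junb went from 8.93 to 7.14. Higher were Pim1, a kinase gene listed as a target, from 9.60 to 10.96, and Jak2, from 7.19 to 8.32.

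Ligands, receptors and targets of Nodal and TGF-beta signalling differed from each other. Of 22 genes, 4 were 2-fold or more higher and 5 lower. Among ligands, Nodal was at 9.95 and 10.17, Inhbb, the activin B subunit, went from 11.64 to 7.73 (1666 and 123 reads), Tgfb1 from 8.45 to 6.14 and Gdf3 from 11.20 to 10.14. The receptors Acvr1b and Acvr2b lay within 0.5 of day 0. Among targets and regulators, Lefty1 stood higher, as given above, Skil, an inhibitor of Smad factors, went from 10.20 to 12.15, and Smad7, an inhibitory Smad, from 10.30 to 9.45.

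In the BMP pathway, Bmp4, the ligand, went from 10.65 to 7.55 (interval −3.40 to −2.81). The receptors Bmpr1a and Bmpr2 had differences of 0.57 and 0.64. The Id targets split: Id1 went from 10.44 to 9.32 and Id3 from 7.11 to 8.67. In all, 3 of 12 were 2-fold higher and 3 were 2-fold lower.

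FGF ligands were lower and the receptors Fgfr1 and Fgfr2 were higher. The Fgf family gave 3 described genes, all at least 2-fold lower: Fgf4, made by naive cells, went from 11.68 to 9.52, Fgf17 from 8.56 to 5.48 and Fgf15 from 7.17 to 5.31. Fgfr2 went from 7.45 to 10.02 and Fgfr1, just under 2-fold higher, from 11.02 to 11.98. Feedback genes of the ERK pathway differed among themselves, with Dusp6 at 11.36 and 12.20, Dusp4 at 8.59 and 9.82, Spry4 at 12.08 and 11.09, and Spry2 at 11.18 and 10.04.

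Among 16 Wnt genes, 5 were 2-fold or more higher and 4 lower. Frizzled receptors differed: Fzd5 went from 12.16 to 9.76, while Fzd8 went from 5.94 to 8.06 and Fzd7 from 9.65 to 11.47. Of secreted inhibitors, Sfrp5 went from 6.40 to 9.40, Sfrp2 from 5.99 to 7.95 and Sfrp1 from 10.97 to 9.67, and Notum, which strips the lipid from Wnt proteins, from 9.01 to 5.91. The general target Axin2 was at 7.93 and 7.77. In the Hedgehog pathway, Hhip, an inhibitor, went from 5.64 to 8.15, the receptor Ptch1 from 9.41 to 10.59 and the transducer Smo from 9.39 to 11.05. Of its Gli factors, Gli3 went from 8.26 to 9.65, Gli1 from 9.60 to 8.25 and Gli2 from 11.35 to 9.72.

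The largest difference downward was in Tdh (NM_021480, chromosome 14, 64111185 to 64127929, mm9), with 2994 reads on day 0 and 70 on day 1, 47.7-fold lower (interval −5.94 to −5.23). The rest of threonine, serine and one-carbon metabolism did not share it. Of 20 such genes, Tdh alone was past 2-fold. Gcat, which acts after Tdh, was at 9.97 and 9.35, and Gldc, the glycine decarboxylase, at 11.24 and 10.25. Phgdh, the first enzyme of serine synthesis, was at 9.99 and 10.87.

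Other lower genes are given singly and not as a group. The connexin Gjb5 went from 9.21 to 5.31. Nphs1, nephrin, went from 10.95 to 7.77, and Kirrel2, its relative at the same locus, from 9.74 to 6.11. The antisense Nphs1as, which overlaps Nphs1, went from 7.79 to 3.37, and whether the counting used strand is not known here. Ildr1, a protein of tricellular junctions, went from 10.10 to 6.59, and Grhl2, an epithelial factor, from 8.19 to 4.95. Grhl2 was the lowest of 16 listed epithelial and mesenchymal genes. Of these, 12 were within 2-fold, 8 were higher and 8 lower, with a median of −0.12. Ntn1, the guidance cue netrin, went from 9.76 to 6.51, Mapt, the microtubule protein tau, from 9.50 to 6.51, and Chrna9, an acetylcholine receptor subunit, from 8.23 to 4.11. Spp1, osteopontin, went from 12.21 to 9.31. Nkx6-3, a homeodomain gene, went from 128 reads to 7, and Msc, musculin, a helix-loop-helix repressor, from 75 to 4.

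Some genes at least 4-fold apart lay close together. Apart from Hox genes, 10 pairs of genes at least 4-fold apart from day 0 lay within 10000 bases of each other. In all 10 both had the same direction. How often neighbours share a direction over all genes was not computed. Other genes at least 4-fold apart had a neighbour near day 0, such as Hic1 beside Dph1 (8.64 and 8.46) and Rgma beside Chd2 (10.78 and 10.84). The 10 pairs are not independent: 3 come from the locus of Kirrel2, Nphs1 and Nphs1as, and in 2, Nanog with Nanogpd and Nphs1 with Nphs1as, the genes overlap. The others were Ap3b2 with Cpeb1 (5.26 and 8.60), Cdx1 with Pdgfrb, Tshz1 with Zadh2 (5.59 and 9.05), Tdgf1 with Lrrc2 (9.46 and 6.87), Krt17 with Krt42 (9.32 and 6.83) and Dnmt3l with Aire (8.53 and 6.43). In all, 18 of the 306 genes at least 4-fold apart overlapped another listed gene, 15 of them one on the other strand, and the part of shared reads was not tested.

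Imprinted genes, expressed from 1 parental allele, leaned upward with a block downward. Of 20, 8 were 2-fold or more higher and 4 lower. Dlk1, a paternally expressed Notch-like gene, went from 5.59 to 8.28, and the maternally expressed noncoding RNAs of the same locus went the other way, Meg3 from 9.92 to 8.12, Rian from 11.47 to 9.22 and Mirg from 7.48 to 5.03. Igf2 went from 6.33 to 8.09, H19 from 5.33 to 7.32, Ndn, necdin, from 6.37 to 8.55, and Plagl1 from 6.61 to 8.49. Alleles were not measured.

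Antigen presentation genes and interferon-induced transmembrane genes differed in direction. H2-K1 and H2-D1, class I heavy chains, went from 8.06 to 10.03 and from 7.59 to 8.93, their light chain B2m from 6.03 to 7.16 and the peptide transporter Tap1 from 5.19 to 7.29. Ifitm1, Ifitm2 and Ifitm3 went from 10.10 to 7.60, from 12.21 to 10.88 and from 10.61 to 7.96. The interferon transducers Stat2 and Irf9 lay within 0.5 of day 0, and Ddx58, the RNA sensor RIG-I, went from 9.71 to 6.71. Heavy chain genes are near-identical to other members of their family, so their reads are uncertain.

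Among 15 immediate early genes, Jun went from 5.59 to 7.93 and Jund from 9.64 to 11.42, while Junb and Egr1 stood lower, as did Arc, from 10.27 to 8.30, and Nr4a1, from 10.44 to 8.90. Hypoxia targets had a median of 0.81, and of the 14, 4 were past 2-fold on the higher side and 2 on the lower. Among the latter, Ndrg1, a stress-induced gene, went from 8.06 to 5.99, past 4-fold. Vegfa, the vascular growth factor, lay at the 4-fold edge with 8.38 to 10.39, and Slc2a1, the glucose transporter, went from 13.11 to 14.69. Glycolytic enzymes mostly lay slightly below day 0, and 16 of 24 were lower with a median of −0.21, among them Pfkp, a phosphofructokinase, with a difference of −1.62, and Pdk1, which restrains entry of pyruvate to mitochondria, from 12.12 to 10.89. Of 26 sterol and lipid synthesis genes, 24 were higher by small amounts, with a median of 0.22. These small medians lie close to the overall median of 0.09 and moved with the scaling.

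Chromatin genes differed in single cases more than as groups. Of 15 genes of DNA methylation, 2 were 2-fold or more higher and 3 lower. Tet1, a 5-methylcytosine dioxygenase, went from 13.95 to 12.27 and Tet3 from 8.26 to 9.83, and Tet2 was at 12.65 and 12.33 and Dnmt1 at 12.89 and 13.03. Of 31 Polycomb and histone methylation genes, 24 lay within 0.5 of day 0. Past 2-fold were Bmi1, from 7.79 to 9.47, and Kdm6b, from 10.38 to 11.61, on the higher side, and Eed, the core subunit of Polycomb complex 2, from 11.89 to 10.77, and Wdr5, from 12.43 to 11.35, on the lower. Ezh2 was at 11.83 and 11.67 and Suz12 at 11.46 and 11.43.

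All 20 m6A genes, which write, read or erase the mark, lay within 0.5 of day 0, with a median of 0.08 (−0.03 with TMM scaling). Zfp217, the zinc finger gene of the series title, was at 10.84 and 10.75 (957 and 1003 reads), a difference of −0.09 (interval −0.22 to 0.04). Mettl3, the methyltransferase, was at 9.63 and 9.92 (interval 0.11 to 0.48), Mettl14 at 8.52 and 8.71, Wtap at 10.25 and 10.29, and the demethylases Alkbh5 and Fto had differences of 0.43 and −0.002. A transcript level does not measure the mark itself.

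Basic cell functions stood near day 0. None of 93 cytosolic and 74 mitochondrial ribosomal protein genes and none of 37 proteasome genes was past 2-fold, with medians of −0.10, −0.10 and −0.04. All 20 described ATF4 and unfolded protein response genes were within 2-fold. Among 33 cell cycle genes, 30 were within 2-fold, and the exceptions were Ccnd1, cyclin D1, from 11.57 to 10.23, Rb1, from 7.43 to 8.79, and Cdkn2a, from 6.47 to 7.81. The replication genes Mcm2 and Pcna were at 14.12 and 14.08 and at 12.81 and 12.50. Of 21 p53 targets none was 4-fold apart, and Cdkn1a was at 8.24 and 8.70. Among the most abundant transcripts, Eef1a1, the translation elongation factor, was at 17.58 and 17.56, Gapdh at 16.18 and 15.91, and Actb at 16.15 and 15.74.

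The later libraries show what became of some of these genes, without a replicate on any day. Cyp26a1 was at 13.73, 13.93, 13.82 and 13.26 on days 2 to 5, and Hoxa5 at 11.10, 10.79, 11.39 and 11.44. Neither came near its day 0 level on these days. Other genes were high on day 1 and low later. Stra8 was at 11.75, 8.99, 7.94 and 6.80, Lefty1 at 11.07, 6.80, 4.78 and 3.43, and Cdx1 at 6.07, 3.80, 1.72 and 1.26. Olig3 had its highest value on day 1, at 7.86, and was at 2.82 on day 2. Hoxb1, the most anterior gene of its cluster, was at 10.002 on day 2 and 3.96 on day 5.

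Among lower genes, some stood higher again on day 2. Tdh went from 6.91 on day 1 to 9.73, 10.74, 10.36 and 9.35 on days 2 to 5, and Mycn from 8.02 to 10.10, 10.82, 9.95 and 9.87. Inhbb and Tdgf1 went on down, to 3.40 and 4.72 on day 2. Nr0b1 was at 4.52 on day 2 and 3.43 on day 5. The day 6 library, in which the median transcript had 90 reads against 241 on day 0, is left out here.

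**Figure D5:**
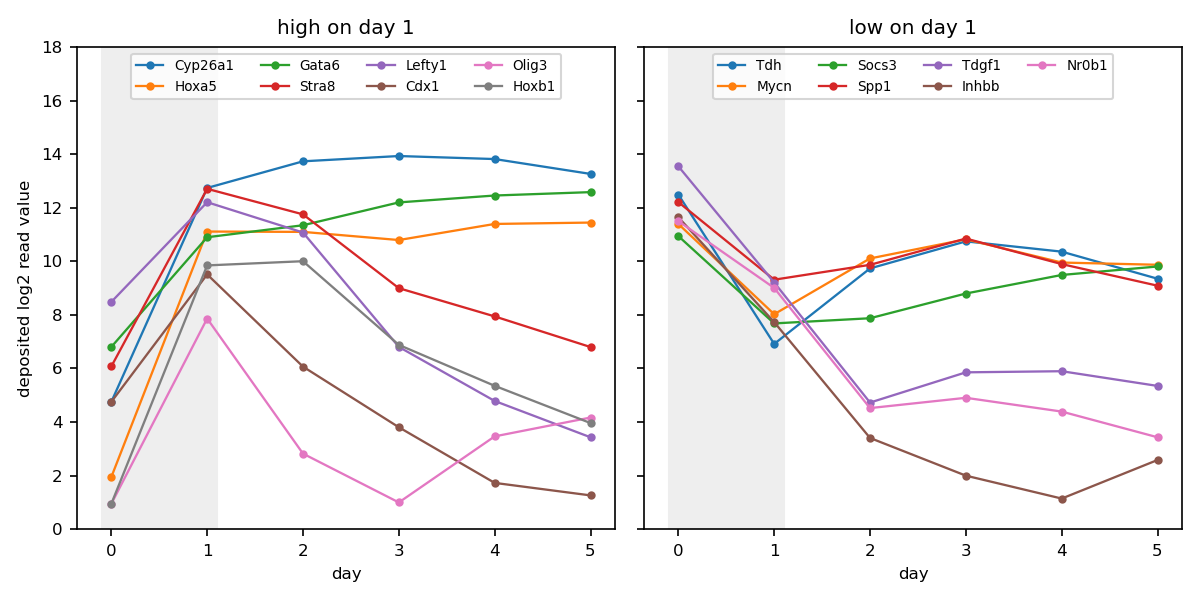
Deposited log2 read values from day 0 to day 5 of 8 genes high on day 1 (left) and 7 low on day 1 (right), 1 library per day; grey marks days 0 and 1. Stra8, Lefty1, Cdx1, Olig3 and Hoxb1 come down after day 1 or 2 and Cyp26a1, Hoxa5 and Gata6 do not, while Tdh, Mycn and Spp1 stand higher on day 2 than on day 1.

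The limits that define these groups are edges in a continuous range. Just inside the level limit were Acot13, Aldh1b1 and Atp8b1, each with 7.01 on its higher day, and just outside it were Ttbk1, Zfp40 and Zfp691, each with 6.99. At the 4-fold limit, Srcin1 and Vegfa lay just inside with differences of 2.01 and 2.02, and Tgfbr3 (6.40 and 8.40) and Ankrd44 (7.78 and 9.77) just outside. On the lower side Ppm1j and Trim2 were inside, at −2.01 and −2.01, and Lifr outside.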

How the data were processed

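Each day gave 1 stranded library of Trizol-extracted CCE RNA after ribosomal RNA removal, per the labels' protocols. The aligner was BWA 0.7.3 and the build mm9, per the submitters' processing notes. How reads were counted, with or without strand, on which annotation release and how scaled was not given in the sources used for this report. The deposited log2 values are per RefSeq transcript. Raised from the log, all values that came to 1000 reads or fewer were within 0.05 of whole multiples of the lowest value, so reads were recovered by taking that lowest value as 1 read. A whole number added to all counts before scaling would look the same.

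For each symbol the transcript with the highest 7-day mean was used, and symbols with a value of 7 or more on either day were described. Differences, exact binomial 95% intervals and RPKM (from the recovered reads and the table's transcript lengths) were computed with Python 3.11.15, numpy 2.4.6, pandas 2.3.3 and scipy 1.17.1, and the interval script was tested on simulated data. With 1 library a side no test between days was made.

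Genes named by rule were 5 markers, the 30 with the highest lower bound and the 30 with the lowest upper bound of the interval (clone names aside), in each of 43 lists up to 6 with the largest differences and up to 3 abundant ones within 0.5, the 10 highest levels and a few examples. Further list members, other genes and the motifs were picked once values were known. The members, the lists and the motifs were chosen with earlier results of these data known. Recovered reads, summed over all transcripts, were 10280938 and 11462785. Alternatives were quantile normalization, median-centring, TMM factors (written in Python, not with edgeR's code), other level limits, other transcript choices, 10 added reads and a loess of difference on length (span 0.5). Some genes that the rule names are not reported here and are left out of the figures.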

Additional observations from a re-analysis of the deposited data

How the results depend on the processing

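Every difference rests on 1 library a side, so culture-to-culture spread was not measured, and intervals cover counting error only. With a level limit of 9 in place of 7, 88 genes were at least 4-fold higher and 72 lower, and 334 and 255 at 2-fold. Taking the near bound of each counting interval left 119 higher at 4-fold and 456 at 2-fold. With no level limit, 268 were higher and 134 lower by 4-fold. Median-centring gave 170 and 134, TMM factors 168 and 139 with day 1 shifted by 0.11, 10 added reads 142 and 105, and the length correction 181 and 125. Of 113 named genes at least 4-fold apart, 111 were so with TMM factors, 106 with quantile normalization, 112 after the length correction and 113 with transcripts summed, and none of these 113 changed sign under these. The neural crest median was −1.04 as reported and 0.49 with no level limit, because 6 more genes enter. The retinoid gene median of 2.78 fell by 2.21 with no level limit and was no longer past 4-fold. The other 3 list medians past 4-fold stayed so. Medians near 0, such as those of the cell cycle and m6A lists, and the overall median (−0.02 with TMM factors) changed sign with some alternatives. No paired analysis was possible because each day had 1 library. Low counts limit the genes under 8 on their higher day, whose median interval was 0.92 wide.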
